A study of Mus musculus with 9 samples.

Results

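The cell cycle and DNA replication genes are a set of 37 named genes that drive or mark cell division, and each was found by its symbol among the 54532 genes of the deposited table. The set was described in wild type mouse macrophages grown from bone marrow as primary cells and kept for 48 h on 1 of 3 implant metals. Group Ta3 was cultured on the metallic glass Zr58Cu25Al14Ta3, group Ta0 on the metallic glass Zr61Cu25Al14, which has no tantalum, and group cpTi on titanium. A metallic glass is an alloy without crystal order. Polyadenylated RNA was sequenced in 3 libraries per material, and all 9 libraries share the genotype, the culture time and the kit. The word xenograft, which the labels give as tissue and source, was set aside. They do not say whether the libraries of a material came from separate animals or cultures, so p-values measure the spread between libraries, which may be technical. No other surface was analysed here, so a fall on glass and a rise on titanium cannot be told apart. The table's column stems were tied to the glasses by composition, and a reversed reading would exchange Ta3 and Ta0.

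A cell enters division when cyclin D with Cdk4, and then cyclin E with Cdk2, inactivate the retinoblastoma protein and free the E2F factors, which switch on the genes of DNA synthesis. Licensing factors load the ring of Mcm proteins onto origins, the clamp Pcna holds the polymerase on DNA, and enzymes of nucleotide supply feed it. Mitosis follows under cyclins A and B with Cdk1, the Aurora and Polo kinases, spindle motors and the ubiquitin machinery of exit. Macrophages from bone marrow divide in response to the growth factor Csf1 and leave the cycle as they mature or are activated.

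Promoters of these genes carry known control letters, so they are shown before the levels. Windows of 300 bases, from 250 before to 50 after the start, were read from RefSeq (GRCm38.p6), and 30 of the 37 genes matched. Both strands were searched for an E2F site (TTTCCCGC or TTTGGCGC), the cell cycle homology region (CHR, TTTGAA), which is bound by the complex that represses and later activates mitotic genes, and the CCAAT box (CCAAT). The first promoters are those of Cdk1, the kinase of mitotic entry, and of its partner cyclin Ccnb2, at chr10:69352863-69353162 and chr9:70421505-70421804 on the minus strand. They were chosen as the mitosis genes with the highest level among those that hold a CHR, and the capitals mark the CHR.

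Cdk1: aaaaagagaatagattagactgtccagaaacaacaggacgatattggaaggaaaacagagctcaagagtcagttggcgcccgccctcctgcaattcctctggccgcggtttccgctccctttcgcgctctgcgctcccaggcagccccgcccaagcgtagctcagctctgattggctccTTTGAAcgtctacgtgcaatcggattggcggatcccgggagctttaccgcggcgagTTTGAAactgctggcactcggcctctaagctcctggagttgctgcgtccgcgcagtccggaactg

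Ccnb2: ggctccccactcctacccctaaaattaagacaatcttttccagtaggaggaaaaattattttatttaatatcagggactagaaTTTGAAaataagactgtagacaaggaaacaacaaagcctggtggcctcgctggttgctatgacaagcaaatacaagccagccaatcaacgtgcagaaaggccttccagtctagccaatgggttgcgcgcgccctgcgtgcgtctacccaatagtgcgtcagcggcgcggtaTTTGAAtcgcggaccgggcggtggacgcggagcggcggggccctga

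The other promoters belong to Mcm3 and Mcm6, subunits of the replicative helicase, at chr1:20820263-20820562 and chr1:128359656-128359955 on the minus strand. They were chosen as the replication genes with the highest level among those that hold an E2F site, and the capitals mark that site on either strand.

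Mcm3: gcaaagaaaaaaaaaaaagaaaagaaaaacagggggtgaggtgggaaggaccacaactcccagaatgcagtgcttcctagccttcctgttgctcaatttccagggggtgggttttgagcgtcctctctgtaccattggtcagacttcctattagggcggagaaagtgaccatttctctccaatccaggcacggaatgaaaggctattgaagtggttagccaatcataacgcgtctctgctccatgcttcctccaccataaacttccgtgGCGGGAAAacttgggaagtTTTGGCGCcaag

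Mcm6: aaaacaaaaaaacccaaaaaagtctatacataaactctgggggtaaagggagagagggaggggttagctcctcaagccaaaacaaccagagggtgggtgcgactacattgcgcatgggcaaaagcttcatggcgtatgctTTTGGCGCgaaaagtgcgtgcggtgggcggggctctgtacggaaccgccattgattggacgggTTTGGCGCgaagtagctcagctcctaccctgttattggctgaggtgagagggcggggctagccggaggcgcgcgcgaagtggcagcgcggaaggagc

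In Cdk1 the CHR begins 71 and 15 bases before the start, and in Mcm6 the E2F site begins 110 and 47 bases before it. A CHR stood in 11 of the 15 mitosis genes with a window (73.3%) and in 1 of the 11 licensing and replication genes, against 20.2% of all 27025 genes with a window. The E2F letters stood in 5 of the 11 licensing and replication genes (45.5%) and in 0 of the 15 mitosis genes, against 1.80% of all genes. The CCAAT box stood in 14 of the 15 mitosis genes and 8 of the 11 replication genes, against 41.1% of all genes. A match is a description of the letters and not a measured binding site, and a gene with more than 1 window was counted once if any window held the motif.

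The libraries differed within and between materials. Whole reads rebuilt from the deposited values came to between 15517877 and 18689963 per library. Ta3 replicate 3 and Ta0 replicate 1 stood apart: ribosomal protein genes held 16.9% and 18.3% of their reads, against 2.22% to 10.3% in the other 7, and 13466 and 15678 genes were above 0, against 18156 to 20635. Their implied scale, the number of reads by which the authors divided, was 9775248 and 9078170, well under their rebuilt reads, against 16342347 to 21911078 in the other 7. Both are on glass, and medians of the ribosomal share were 9.75% in Ta3, 10.3% in Ta0 and 5.25% in cpTi libraries. Mitochondrial genes held 1.09%, 1.03% and 0.737% of reads in Ta3 libraries, 1.07%, 1.40% and 1.28% in Ta0 libraries and 1.71%, 2.09% and 1.39% in cpTi libraries, so that all Ta3 libraries lay below all cpTi libraries.

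The macrophage markers were high in every library, with a mean of 25140 FPKM (fragments scaled by gene length and library size) over all 9 for Lyz2, lysozyme. The 4 markers of blood stem and progenitor cells summed to at most 1.24 FPKM in any library. The 7 fibroblast markers summed to 36.5 to 43.7 FPKM in Ta3, 30.0 to 30.7 FPKM in Ta0 and 28.1 to 50.2 FPKM in cpTi libraries, and 5 of them reached 1 FPKM in at least 3 libraries. The 6 neutrophil markers, of which 2 did so, summed to 10.4 to 383.5 FPKM in Ta3, 91.9 to 387.4 FPKM in Ta0 and 61.9 to 269.3 FPKM in cpTi libraries. Most of that sum was S100a8, and the defining marker Ly6g was at 0 in all 9. The 5 erythroid markers, of which 1 did so, summed to 0.354 to 36.0 FPKM in Ta3, 0.740 to 11.99 FPKM in Ta0 and 0.357 to 0.616 FPKM in cpTi libraries. Within Ta3 and within Ta0, the neutrophil and the erythroid sums were highest in the library that stood apart. The lists for granulocyte precursors, B cells, T and NK cells, endothelial cells and mast cells each summed to between 0.430 and 7.90 FPKM in any library. The part of these markers, the ribosomal share and the mitochondrial share in any value below was not tested.

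Most of the cell cycle genes were at low levels on all 3 materials. The median of their mean levels over the 9 libraries was 1.83 FPKM, against 6.02 FPKM for the 10858 genes that reached 1 FPKM in at least 3 of the 9 libraries and were tested. Of the 37 genes, 31 passed that filter, and 26 of these 31 had a mean under the median of all tested genes. Only Pcna and Cdk4 had means above 10 FPKM, at 146.7 and 82.8 FPKM, which rank 487th and 770th among all genes. The helicase subunits Mcm3 and Mcm6 and the transcription factor E2f1 followed at 8.33, 7.26 and 6.84 FPKM. Another 10 genes had means of 2 to 5 FPKM, 14 of 1 to 2 FPKM and 8 under 1 FPKM. In bulk RNA, fewer dividing cells and less RNA per dividing cell cannot be told apart.

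**Figure D1:**
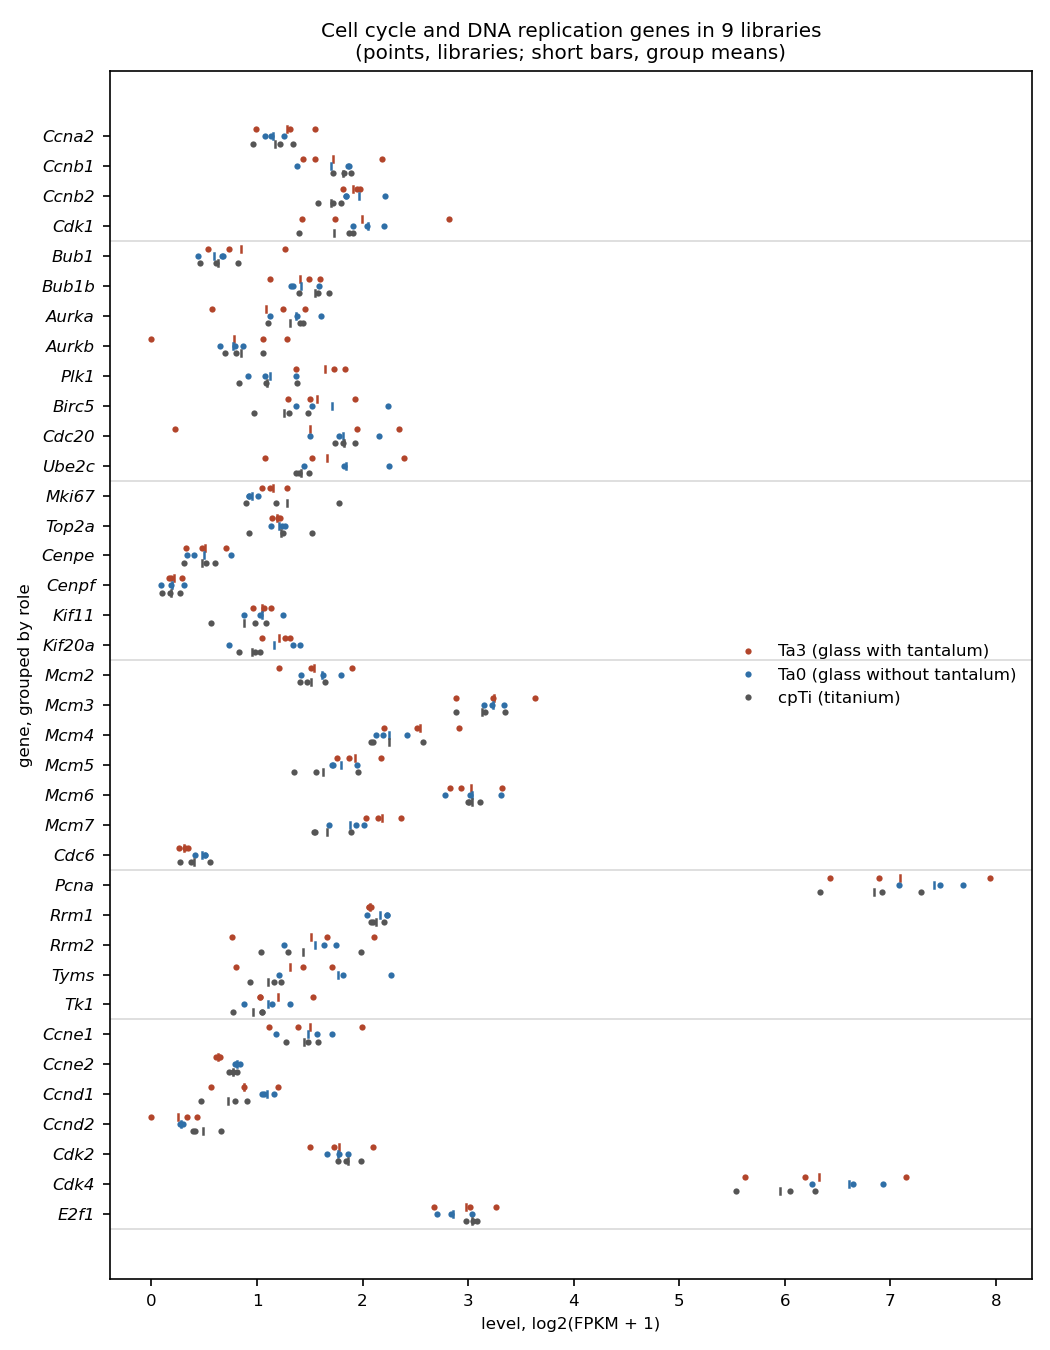
Level of each of the 37 genes on the log2(FPKM + 1) scale, with 1 point per library, short bars for the group means and the groups Ta3, Ta0 and cpTi from top to bottom within a gene. Pcna and Cdk4 lie far to the right of the others, and the points of the materials are mixed for nearly all genes.

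No cell cycle gene differed between materials at an adjusted p under 0.05, the threshold for a call. In limma on log2(FPKM + 1), with Benjamini-Hochberg adjustment over all 10858 tested genes, 0 of 31 were called for Ta3 against cpTi, 0 for Ta0 against cpTi and 0 for Ta3 against Ta0. Over all tested genes the calls made up 0.479%, 0.424% and 0% in those comparisons, so a count of 0 among 31 genes is near the background. At an unadjusted p under 0.05, 2 of 31 passed for Ta3 against cpTi, 0 for Ta0 against cpTi and 1 for Ta3 against Ta0, where 6.99%, 5.5% and 4.25% of all tested genes did. Limma with voom weights on the rebuilt reads called 0 in each comparison too, with 2, 0 and 1 at an unadjusted p under 0.05. Both glasses were set against the same 3 cpTi libraries, so those comparisons are not independent.

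Fold changes of these genes were small and their direction mixed. The median log2 fold change of the 31 was 0.12 for Ta3 against cpTi, 0.11 for Ta0 against cpTi and -0.01 for Ta3 against Ta0, beside 0.02, 0.00 and -0.04 for all tested genes. In these comparisons 20, 20 and 15 of the 31 lay above 0, or 64.5%, 64.5% and 48.4%, beside 52.7%, 49.9% and 45.1% of all tested genes. The 95% interval of the difference lay within 1 log2 unit either side of 0 for 25, 24 and 26 of the 31 genes, or 80.6%, 77.4% and 83.9%, beside 64.6%, 63.8% and 63.8% of all tested genes. For those genes a change of more than 2-fold on the log2(FPKM + 1) scale lies outside the interval, on which changes of genes near 1 FPKM come out too small. Without Ta3 replicate 3 and Ta0 replicate 1, the medians were 0.07, 0.10 and -0.02. The sign of the median depended on the scale: with each library's total of rebuilt reads as its scale it was -0.014, -0.15 and 0.08, beside -0.15, -0.29 and 0.08 for all tested genes.

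**Figure D2:**
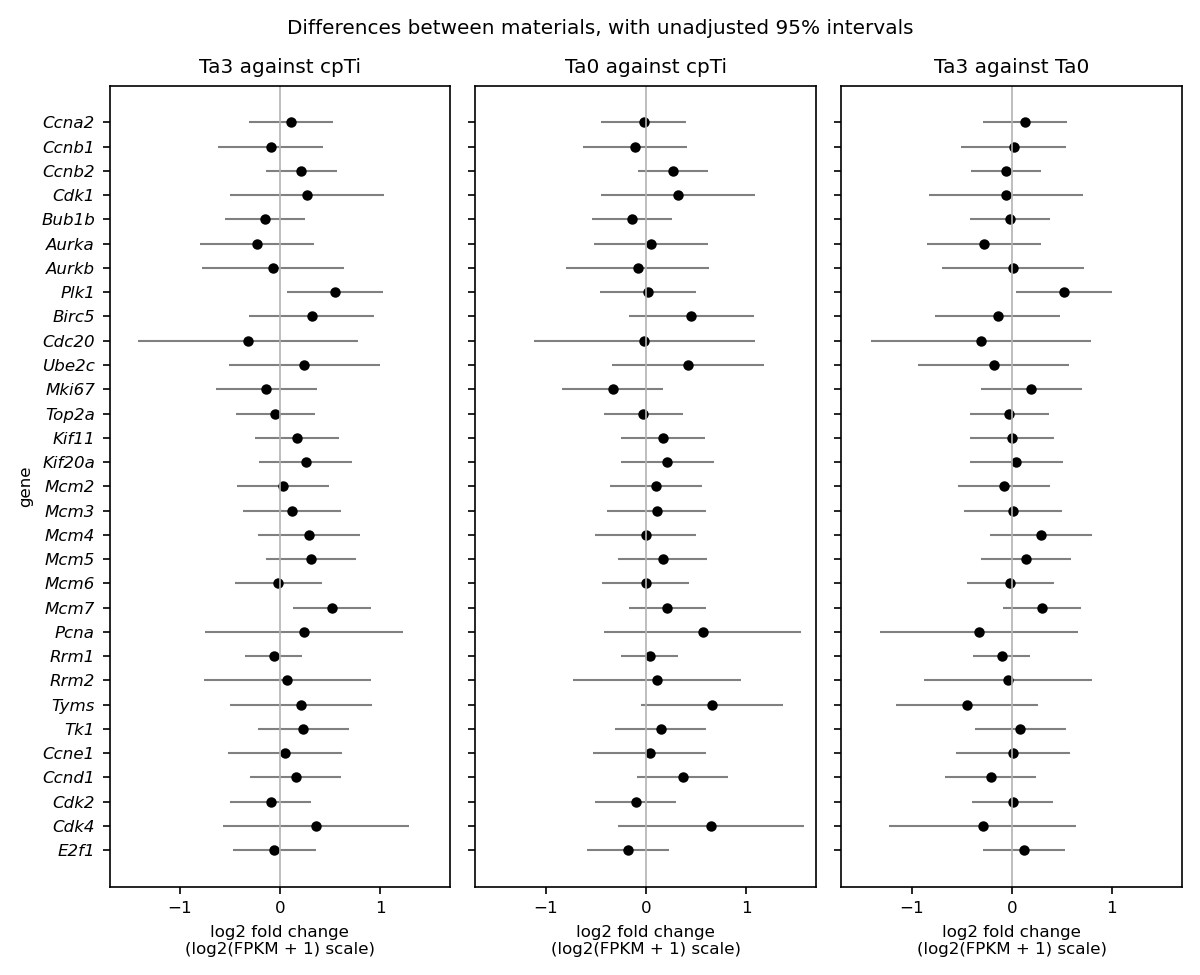
Log2 fold change (points) with its unadjusted 95% interval (lines) on the log2(FPKM + 1) scale for the 31 tested genes, in Ta3 against cpTi, Ta0 against cpTi and Ta3 against Ta0. The intervals of Mcm7 and Plk1 in Ta3 against cpTi and of Plk1 in Ta3 against Ta0 are the 3 that leave out 0.

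Among the tested genes of origin licensing, Mcm7 had the smallest p in limma. This helicase subunit (chr5:138164583-138172422) had 3.08, 3.43 and 4.16 FPKM in Ta3 libraries, 2.22, 3.05 and 2.82 FPKM in Ta0 libraries and 1.92, 1.93 and 2.71 FPKM in cpTi libraries. All 3 Ta3 libraries lay above all Ta0 and all cpTi libraries, while Ta0 and cpTi overlapped. The log2 fold change was 0.52 ± 0.17 (SE, n = 3 libraries each) for Ta3 against cpTi, with a 95% interval of 0.13 to 0.91 and an adjusted p of 0.458 in limma. For Ta3 against Ta0 it was 0.30 ± 0.17, with an adjusted p of 0.846. Mcm7 lies over Ap4m1 and Cops6 on the opposite strand, and the strand setting of the counting is not given in the sources used here. Reads from any stretch these genes share therefore cannot be told apart. In all, 16 of the 37 genes overlap a gene on the opposite strand. Overlap was taken over whole genes, introns included, and how far it touches the counted reads was not tested.

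For each of the other helicase subunits, the widest range within a material was larger than the largest difference between group means. Mcm3 had 8.39, 11.39 and 6.38 FPKM in Ta3 libraries, 8.34, 9.10 and 7.89 FPKM in Ta0 libraries and 7.92, 6.37 and 9.17 FPKM in cpTi libraries. Ta3 replicates 2 and 3 were the highest and the second lowest of all 9. Mcm6 averaged 7.24 ± 1.52 FPKM in Ta3, 7.32 ± 1.54 FPKM in Ta0 and 7.23 ± 0.364 FPKM in cpTi libraries (SD, n = 3 each), with a log2 fold change of -0.01 for Ta3 against cpTi and of 0.00 for Ta0 against cpTi. Mcm2, Mcm4 and Mcm5 had log2 fold changes of 0.03 to 0.31 against cpTi in Ta3 and of 0.00 to 0.17 in Ta0. Cdc6, which loads the helicase, was under the filter, at 0.20 to 0.27 FPKM in Ta3, 0.33 to 0.42 FPKM in Ta0 and 0.21 to 0.47 FPKM in cpTi libraries.

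Pcna, the sliding clamp (chr2:132249162-132253314), was the most abundant gene of the set. It had 117.7, 85.0 and 245.6 FPKM in Ta3 libraries, 205.2, 134.8 and 176.8 FPKM in Ta0 libraries and 120.3, 155.5 and 79.7 FPKM in cpTi libraries. The highest values were in Ta3 replicate 3 and Ta0 replicate 1, the libraries that stood apart, and the materials overlapped. The log2 fold change was 0.24 ± 0.43 for Ta3 against cpTi, 0.57 ± 0.43 for Ta0 against cpTi and -0.33 ± 0.43 for Ta3 against Ta0 (SE), with adjusted p of 0.960, 0.750 and 0.846 in limma. Per 1000000 rebuilt reads, Pcna had 279.3, 238.7 and 371.2 reads in Ta3 libraries, 287.9, 334.5 and 375.8 in Ta0 libraries and 311.0, 337.5 and 230.3 in cpTi libraries. On that scale Ta0 replicate 1 was the lowest of its group. The processed copy Pcna-ps2 reached at most 2.92 FPKM in any library.

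The genes of nucleotide supply did not separate the materials. Tyms, thymidylate synthase, had 1.71, 0.75 and 2.27 FPKM in Ta3 libraries, 3.84, 1.31 and 2.52 FPKM in Ta0 libraries and 1.24, 1.33 and 0.91 FPKM in cpTi libraries. Ta0 replicate 1 was the highest of all 9, and Ta0 overlapped with cpTi. Its log2 fold change of 0.66 ± 0.31 for Ta0 against cpTi was the largest of the 31 in that comparison, with a 95% interval of -0.05 to 1.37 and an adjusted p of 0.750 in limma. Without the libraries that stood apart it was 0.41. Rrm1, the large subunit of ribonucleotide reductase, was the steadiest of the genes above 3 FPKM, with 3.20 ± 0.0392 FPKM in Ta3, 3.50 ± 0.340 FPKM in Ta0 and 3.38 ± 0.207 FPKM in cpTi libraries (SD, n = 3 each). Rrm2, its small subunit, had 2.17, 3.31 and 0.70 FPKM in Ta3 libraries, 2.11, 2.36 and 1.39 FPKM in Ta0 libraries and 1.45, 1.05 and 2.95 FPKM in cpTi libraries. Its lowest value was in Ta3 replicate 3, where Pcna was highest. Tk1, thymidine kinase, ranged from 0.71 to 1.89 FPKM over all 9.

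Of the regulators of G1 and of the entry into DNA synthesis, Cdk4 alone lay above 10 FPKM. Cdk4, the partner of the D cyclins (chr10:127063534-127067920), had 72.2, 48.3 and 140.8 FPKM in Ta3 libraries, 121.4, 75.4 and 99.1 FPKM in Ta0 libraries and 65.3, 77.0 and 45.4 FPKM in cpTi libraries. The highest values were those of Ta3 replicate 3 and Ta0 replicate 1, as for Pcna, and all the groups overlapped in FPKM. Per 1000000 rebuilt reads, Cdk4 had 231.8, 183.6 and 288.2 reads in Ta3 libraries, 230.6, 253.2 and 285.2 in Ta0 libraries and 228.7, 226.4 and 177.4 in cpTi libraries. On that scale, chosen after seeing the data, Ta0 replicate 1 was the lowest of its group. All Ta0 libraries lay above all cpTi libraries there, the closest at 230.6 against 228.7 reads. How many of all tested genes separate on that scale was not counted. No cell cycle gene was called with that scale, where the smallest adjusted p in limma was 0.635. On the authors' FPKM scale, the log2 fold change of Cdk4 was 0.36 ± 0.41 for Ta3 against cpTi and 0.65 ± 0.41 for Ta0 against cpTi (SE). Cdk4 lies over Tspan31 on the opposite strand. Of its cyclins, Ccnd1 was scarce, with 0.84, 1.30 and 0.48 FPKM in Ta3 libraries, 1.24, 1.10 and 1.07 FPKM in Ta0 libraries and 0.73, 0.39 and 0.87 FPKM in cpTi libraries. All Ta0 libraries lay above all cpTi libraries for Ccnd1, with a log2 fold change of 0.37 ± 0.20 and an adjusted p of 0.750 in limma.

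Ccnd2, another D cyclin, was under the filter and had 0.26, 0.34 and 0 FPKM in Ta3 libraries, 0.21, 0.20 and 0.23 FPKM in Ta0 libraries and 0.33, 0.32 and 0.58 FPKM in cpTi libraries. The 0 in Ta3 replicate 3 allows up to 0.0326 FPKM, counted as 3 reads and for counting error alone. The E cyclins partner with Cdk2: Ccne1 averaged 1.93 ± 0.957 FPKM in Ta3, 1.83 ± 0.518 FPKM in Ta0 and 1.74 ± 0.287 FPKM in cpTi libraries, and Ccne2 was under the filter. Ccne2 had 0.57, 0.56 and 0.53 FPKM in Ta3 libraries, 0.79, 0.74 and 0.74 FPKM in Ta0 libraries and 0.75, 0.66 and 0.71 FPKM in cpTi libraries, so that the 3 Ta3 libraries were the lowest of the 9. Fitted without the filter, its log2 fold change was -0.14 for Ta3 against cpTi and -0.18 for Ta3 against Ta0, with adjusted p of 0.911 and 0.863 in limma. Cdk2 ranged from 1.83 to 3.29 FPKM and E2f1 from 5.39 to 8.60 FPKM over the 9 libraries, with every group overlapping the others.

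Among the mitotic kinases, Plk1, the Polo kinase of mitotic entry and spindle assembly (chr7:122159439-122169873), had 2.31, 2.57 and 1.58 FPKM in Ta3 libraries, 1.10, 1.58 and 0.89 FPKM in Ta0 libraries and 1.12, 0.77 and 1.60 FPKM in cpTi libraries. Ta3 replicates 1 and 2 were the highest of the 9, while Ta3 replicate 3 lay among the Ta0 and cpTi values. The log2 fold change was 0.55 ± 0.21 for Ta3 against cpTi, with a 95% interval of 0.07 to 1.03 and an adjusted p of 0.604 in limma. For Ta3 against Ta0 it was 0.52 ± 0.21, with a 95% interval of 0.05 to 1.00 and an adjusted p of 0.846 in limma. These values rest on 22 to 122 reads per library.

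The Aurora kinases and the exit genes varied most within Ta3. Cdc20, an activator of the ubiquitin ligase that starts anaphase, had 2.87, 4.09 and 0.16 FPKM in Ta3 libraries, 2.42, 3.47 and 1.83 FPKM in Ta0 libraries and 2.51, 2.34 and 2.81 FPKM in cpTi libraries. Ta3 replicate 2 held 165 reads of it and Ta3 replicate 3 held 3 reads, so the highest and the lowest of the 9 were both on Ta3. Aurkb, the kinase of the chromosomal passenger complex, had 59, 91 and 0 reads in Ta3 libraries, 22, 28 and 35 reads in Ta0 libraries and 39, 30 and 70 reads in cpTi libraries. The 0 allows up to 0.104 FPKM in Ta3 replicate 3, beside 1.08 and 1.43 FPKM in the other Ta3 libraries. Aurka, the kinase of the spindle poles, was also lowest there, at 0.49 FPKM.

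Ube2c, the ubiquitin-conjugating enzyme of mitotic exit, went the other way. It had 1.87, 1.11 and 4.25 FPKM in Ta3 libraries, 3.77, 1.73 and 2.54 FPKM in Ta0 libraries and 1.63, 1.59 and 1.81 FPKM in cpTi libraries, highest in the libraries that stood apart. Birc5, survivin, an inhibitor of cell death that also sits in the passenger complex, was also highest there, at 2.80 FPKM in Ta3 replicate 3 and 3.72 FPKM in Ta0 replicate 1, against at most 1.87 FPKM in the other 7. The authors' scale was well under the rebuilt reads in these libraries, and its part in these values was not tested. Reads are given below without adjustment for depth, and these libraries had the fewest rebuilt reads of all 9. In reads, Ube2c had 108 and 89 in Ta3 replicate 3 and Ta0 replicate 1, beside 62 to 108 over all 9. Birc5 had 93 and 115 reads there, beside 72 to 115 over all 9. The checkpoint kinase Bub1 was under the filter and reached 1.41 FPKM in Ta3 replicate 3 against at most 0.77 FPKM elsewhere, while its relative Bub1b had its lowest value, 1.17 FPKM, in that library. In reads, Bub1 had 60 there and 73 in cpTi replicate 3. The Bub1b log2 fold change was -0.15 for Ta3 and -0.14 for Ta0 against cpTi, with adjusted p of 0.953 and 0.788 in limma.

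The mitotic cyclins and their kinase were at a few FPKM throughout. Cdk1 had 2.35, 1.68 and 6.07 FPKM in Ta3 libraries, 3.59, 2.75 and 3.13 FPKM in Ta0 libraries and 2.67, 2.75 and 1.63 FPKM in cpTi libraries. Its highest value, in Ta3 replicate 3, and its second lowest, in Ta3 replicate 2, came from the same material. Ccnb2, cyclin B2, had 2.86, 2.51 and 2.94 FPKM in Ta3 libraries, 2.59, 2.59 and 3.64 FPKM in Ta0 libraries and 2.30, 1.98 and 2.47 FPKM in cpTi libraries. Every library on glass lay above every cpTi library for Ccnb2, with log2 fold changes of 0.22 ± 0.15 for Ta3 and 0.27 ± 0.15 for Ta0 against cpTi (SE) and adjusted p of 0.899 and 0.750 in limma. Ccnb1, cyclin B1, had log2 fold changes of -0.09 and -0.11 in the same comparisons, and Ccna2, cyclin A2, of 0.11 and -0.02.

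Mki67, whose protein coats mitotic chromosomes and is a common marker of dividing cells, had 1.18, 1.06 and 1.43 FPKM in Ta3 libraries, 1.02, 0.90 and 0.90 FPKM in Ta0 libraries and 1.26, 0.86 and 2.43 FPKM in cpTi libraries. All Ta3 libraries lay above all Ta0 libraries, and cpTi, with the highest value in its replicate 3, spanned both. The log2 fold change was -0.13 ± 0.22 for Ta3 against cpTi, -0.33 ± 0.22 for Ta0 against cpTi and 0.20 ± 0.22 for Ta3 against Ta0 (SE), with adjusted p of 0.960, 0.750 and 0.846 in limma. Top2a, the topoisomerase that untangles chromosomes, averaged 1.27 ± 0.0630 FPKM in Ta3, 1.31 ± 0.112 FPKM in Ta0 and 1.38 ± 0.486 FPKM in cpTi libraries (SD, n = 3 each). It was also highest in cpTi replicate 3, at 1.87 FPKM.

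The spindle motors Kif11 and Kif20a and the kinetochore proteins Cenpe and Cenpf were near or under 1 FPKM. Kif20a, a motor of cytokinesis, had 1.41, 1.06 and 1.48 FPKM in Ta3 libraries, 0.67, 1.53 and 1.66 FPKM in Ta0 libraries and 1.04, 0.78 and 0.97 FPKM in cpTi libraries. All Ta3 libraries lay above all cpTi libraries, with a log2 fold change of 0.26 ± 0.20 and an adjusted p of 0.921 in limma. Kif11, which pushes the spindle poles apart, had a log2 fold change of 0.17 against cpTi in both glasses. Cenpe and Cenpf reached at most 0.69 and 0.24 FPKM in any library and were not tested with the filter.

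Groups that did not overlap were few and are given without a test. Among the 31 tested genes, 3 were higher in every Ta3 library than in every cpTi library (Ccnb2, Kif20a and Mcm7) and 0 were lower, where 3.47% and 8.22% of all tested genes were. For Ta0 against cpTi, 2 were higher (Ccnb2 and Ccnd1) and 0 lower, where 6.31% and 10.2% of all tested genes were. For Ta3 against Ta0, 2 were higher (Mki67 and Mcm7) and 0 lower, where 4.1% and 4.87% of all tested genes were. With the 6 genes under the filter, Ccne2 lay lower in Ta3 than in cpTi, Ccnd2 lower in Ta0 than in cpTi, and Cdc6 and Ccne2 lower in Ta3 than in Ta0.

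The range of single libraries within 1 material was set beside the difference between group means. A range of single values tends to exceed a difference of means, so each count is read beside all tested genes. The widest range within a material was larger than the largest difference between group means for 35 of the 37 genes, all but Mcm7 and Ccne2. Among the 31 tested genes this held for 30, or 96.8%, beside 92.9% of all tested genes. The widest range was in Ta3 for 21 genes, in Ta0 for 8 and in cpTi for 8. Among the 31 tested genes it was in Ta3 for 19, or 61.3%, beside 70.4% of all tested genes. Ta3 replicate 3 or Ta0 replicate 1 was the highest or the lowest library for 74.2% of the 31 tested genes, beside 77.4% of all tested genes. Replicate 2 of cpTi was the lowest of the 9 for 10 of the 31 tested genes, or 32.3%, and the highest for 0, beside 7.40% and 7.79% of all tested genes.

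**Figure D3:**
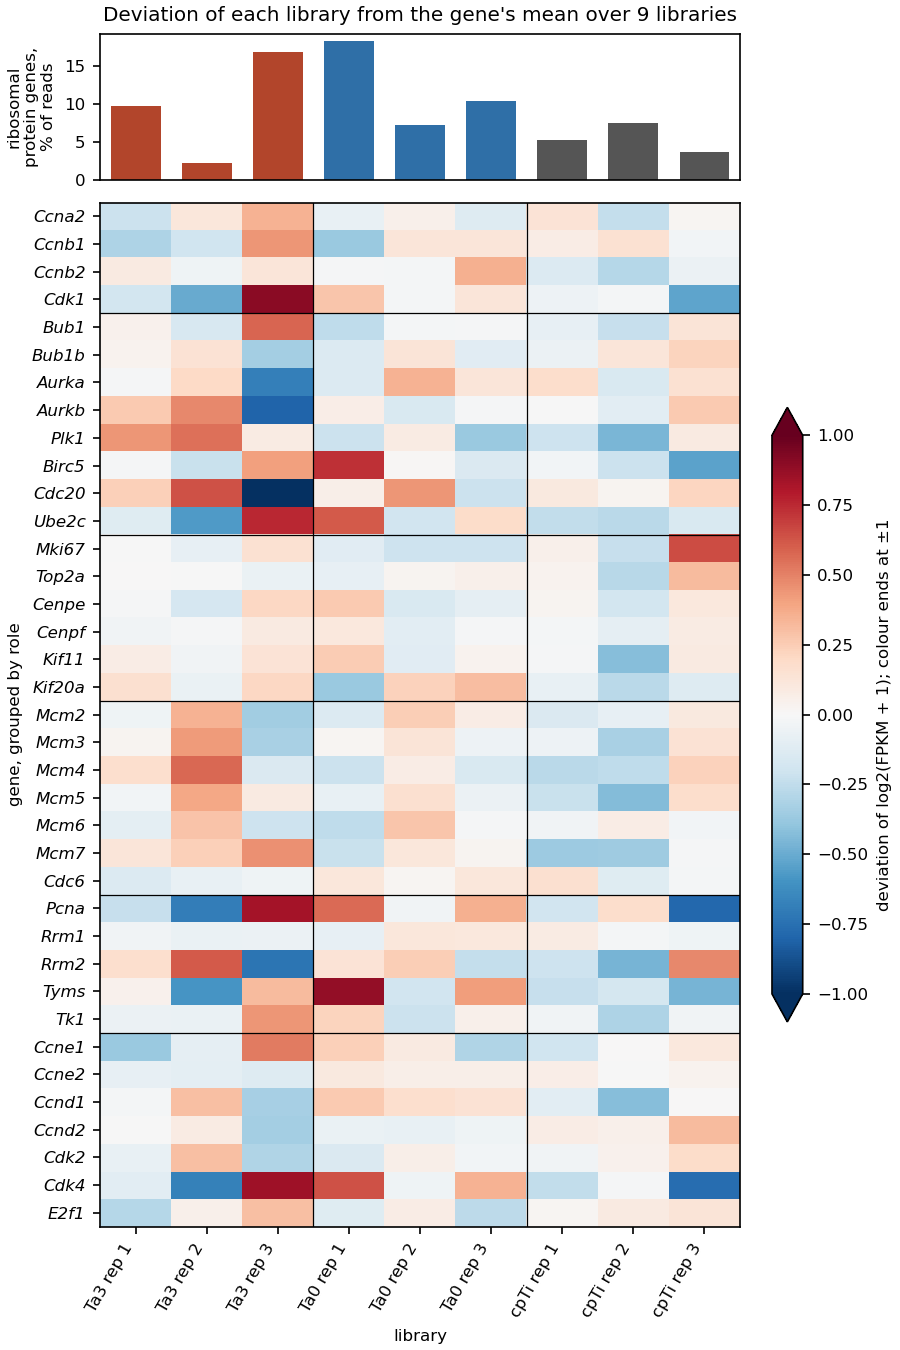
Deviation of each library from the gene's mean over 9 libraries on the log2(FPKM + 1) scale (colour) for the 37 genes (rows, grouped by role), with the libraries of Ta3, Ta0 and cpTi from left to right. Bars above give each library's share of reads from ribosomal protein genes, highest in Ta3 replicate 3 and Ta0 replicate 1, where Pcna and Cdk4 are also highest in FPKM.

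The set's summed level was set mostly by Pcna and Cdk4. All 37 genes summed to 263.0, 219.8 and 465.8 FPKM in Ta3 libraries, 403.1, 291.5 and 349.4 FPKM in Ta0 libraries and 255.5, 296.7 and 204.8 FPKM in cpTi libraries. Without these 2 genes the sums were 73.1, 86.5 and 79.4 FPKM in Ta3 libraries, 76.5, 81.3 and 73.6 FPKM in Ta0 libraries and 69.9, 64.2 and 79.7 FPKM in cpTi libraries. The sums of the remaining 35 genes thus overlapped between the materials on the authors' scale. That scale was well under the rebuilt reads in Ta3 replicate 3 and Ta0 replicate 1. Single genes ranged more widely than the sums, as Cdc20 did from 0.16 to 4.09 FPKM.

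Other genes of the pathway were listed by role, and 86 of 129 passed the filter. They comprised 21 of 44 other mitosis genes, 32 of 47 other replication genes, 25 of 30 inhibitors and regulators of G1, and all 8 genes of macrophage growth control. Of the 86, 1 gene rose in Ta3 against cpTi and the same gene rose in Ta0 against cpTi, 0 fell, and 0 were called for Ta3 against Ta0. In those comparisons 0.479%, 0.424% and 0% of all tested genes were called. At an unadjusted p under 0.05, 5, 8 and 5 of the 86 passed in limma, where 6.99%, 5.5% and 4.25% of all tested genes did. The median log2 fold changes of the 86 were 0.02, 0.04 and 0.00. Foxm1 and Mybl2, transcription factors of the mitotic program, were under the filter, with means of 0.513 and 0.393 FPKM over all 9 libraries.

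The gene that rose was Cdkn1c, which encodes p57, an inhibitor of the cyclin-dependent kinases (chr7:143458339-143461050). It had 17.12, 19.73 and 20.62 FPKM in Ta3 libraries, 28.52, 17.18 and 18.25 FPKM in Ta0 libraries and 6.51, 5.05 and 4.39 FPKM in cpTi libraries. Each library on glass had more than 2-fold the level of any cpTi library, and the glasses overlapped. The log2 fold change was 1.68 ± 0.23 for Ta3 against cpTi, a 3.60-fold ratio of the means, with an adjusted p of 0.0281 in limma. For Ta0 against cpTi it was 1.80 ± 0.23, a 4.01-fold ratio, with an adjusted p of 0.0199 in limma. The call for Ta3 was lost when any 1 of the 6 compared libraries, Ta0 replicate 2 or Ta0 replicate 3 was left out, with adjusted p of 0.0574 to 0.133. That for Ta0 was lost when any 1 of its 6 compared libraries or Ta3 replicate 1 was left out, with adjusted p of 0.0593 to 0.121, while the log2 fold change stayed between 1.58 and 1.93. The call for Ta3 was lost too when only the 6 compared libraries were fitted or no filter was set, with adjusted p of 0.0812 and 0.0604, while that for Ta0 kept an adjusted p of 0.0493 and 0.0425. Both calls were also lost on a common FPKM total, with log2 fold changes of 1.57 and 1.24 for Ta3 and Ta0 against cpTi. Without Ta3 replicate 3 and Ta0 replicate 1 together the log2 fold change was 1.63 for Ta3 and 1.58 for Ta0 against cpTi, with adjusted p of 0.0447 and 0.0463. Both calls held with a pseudocount of 0.1 FPKM, a filter on a mean of 0.5 FPKM and voom. They also held with each library's length slope (the slope of its deviations on gene length) as a covariate. In these settings the adjusted p in limma was 0.0012 to 0.0313 for Ta3 and 0.0022 to 0.022 for Ta0 against cpTi. Of 19 alternatives, 6 kept the call for Ta3 and 9 that for Ta0.

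**Figure D4:**
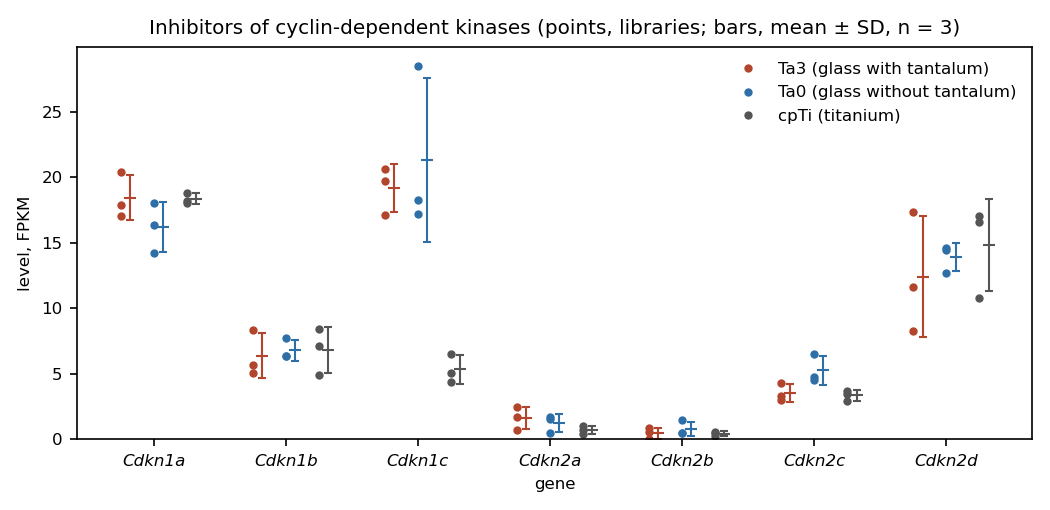
Level in FPKM of 7 inhibitors of cyclin-dependent kinases in each library (points), with mean ± SD (n = 3) and the groups Ta3, Ta0 and cpTi from left to right within a gene. The 6 libraries on glass lie at 17.12 FPKM or above for Cdkn1c and the 3 cpTi libraries at 6.51 FPKM or below.

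The other inhibitors and regulators named here were not called. Cdkn1a, which encodes p21, averaged 18.4 ± 1.73 FPKM in Ta3, 16.2 ± 1.91 FPKM in Ta0 and 18.4 ± 0.404 FPKM in cpTi libraries (SD, n = 3 each), with adjusted p of 0.999 for Ta3 and 0.750 for Ta0 against cpTi in limma. Cdkn1b, which encodes p27, averaged 6.35 ± 1.72 FPKM in Ta3, 6.79 ± 0.804 FPKM in Ta0 and 6.80 ± 1.79 FPKM in cpTi libraries. Ccnd3, the most abundant of the D cyclins here, averaged 3.18 ± 0.599 FPKM in Ta3, 3.15 ± 0.466 FPKM in Ta0 and 3.69 ± 0.374 FPKM in cpTi libraries. Cdk6, the other partner of the D cyclins, averaged 3.49 ± 1.18 FPKM in Ta3, 2.04 ± 0.279 FPKM in Ta0 and 2.42 ± 1.42 FPKM in cpTi libraries. Rb1, the retinoblastoma protein, averaged 4.25 ± 1.49 FPKM in Ta3, 4.16 ± 0.686 FPKM in Ta0 and 5.59 ± 0.648 FPKM in cpTi libraries. Myc, a transcription factor of cell growth, averaged 4.60 ± 2.04 FPKM in Ta3, 3.79 ± 0.907 FPKM in Ta0 and 2.86 ± 1.36 FPKM in cpTi libraries. The lowest adjusted p among Cdkn1b, Ccnd3, Cdk6, Rb1 and Myc over the 3 comparisons was 0.750 in limma.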

How the data were processed

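The deposited table gives FPKM per gene, a value the authors scaled by gene length and library size. The submitters' processing notes name CASAVA 1.8, fastp, HISAT2 2.0.5, featureCounts 1.5.0-p3, DESeq2 1.20.0 and GRCm38 (mm10), with no role for each. Titles gave the groups. The 37 genes, the lists and the pair of libraries set aside were chosen with earlier results of these data known.

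Genes that reached 1 FPKM in 3 or more of the 9 libraries were tested with limma 3.58.1 in R 4.3.3 on log2(FPKM + 1), a pseudocount of 1, with 3 group means and a mean-variance trend. P-values are two-sided, with Benjamini-Hochberg adjustment over 10858 genes. The fit was checked on simulated libraries drawn independently around a common profile. These lack the shifts of the real libraries, so the check does not bear on those. Values were whole multiples of the worth of 1 read for 100% of values within 0.05 reads, which gave the rebuilt reads and each library's scale. A voom test on these reads called 31 genes for Ta3 against cpTi, and the test on FPKM 52. All 37 members were named, and of the other lists each called gene and 9 chosen regulators. Overlapping genes came from GENCODE M21.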

Additional observations from a re-analysis of the deposited data

How the results depend on the processing

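None of the 31 tested cell cycle genes was called in any comparison under any of 19 alternatives. The smallest adjusted p in limma was 0.0522, with each library's length slope as a covariate, and 0.252 under any other. With that covariate 4 passed an unadjusted p under 0.05 in limma for Ta3 against cpTi, 3 for Ta0 against cpTi and 2 for Ta3 against Ta0. Of their 1767 fold changes under alternatives, 1557 kept their sign and 210 uncalled values changed it. Many could not change: other filters, the fit of only the 6 compared libraries and the replicate block leave each fold change as it was. Leaving out a library of the group outside a comparison does so too, so these counts overstate how stable the signs were. Counts over all genes moved more: beside 52 calls for Ta3 against cpTi and 46 for Ta0 against cpTi, there were 29 and 27 with a pseudocount of 0.1 FPKM, 21 and 28 with no filter, 11 and 11 on a common FPKM total, 583 and 246 with each library's length slope as a covariate, and 18 and 20 without Ta3 replicate 3 and Ta0 replicate 1. For Ta3 against cpTi only the 6 compared libraries gave 7 calls and voom 31. Leaving out 1 library gave 8 to 30 and 7 to 84 calls, and medians of the 31 genes of 0.02 to 0.19 for Ta3 against cpTi, 0.01 to 0.17 for Ta0 against cpTi and -0.02 to 0.02 for Ta3 against Ta0. A replicate block gave 4 and 4 calls, and same-numbered libraries correlated over 0.1 in 4 of 9 pairs, so the numbers were not taken to pair them. With that block the adjusted p of Cdkn1c was 0.147 for Ta3 and 0.129 for Ta0 against cpTi, at the same fold changes. The scale mattered for the direction. On a common FPKM total the median of the 31 genes was -0.30 for Ta0 against cpTi and 0.27 for Ta3 against Ta0, where that of all tested genes was -0.47 and 0.33. With each library's total of rebuilt reads as the scale, chosen after seeing the data, it was -0.014 for Ta3 and -0.15 for Ta0 against cpTi, where that of all tested genes was -0.15 and -0.29, and 32 and 22 genes were called. These scales also ended both Cdkn1c calls, with adjusted p of 0.861 and 0.625 on the common total and 0.0759 and 0.104 on rebuilt reads, for Ta3 and Ta0 against cpTi. The cause was not tested. Genes under 1 FPKM rest on few reads, which limits what can be seen of them.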
